A study of Mus musculus with 12 samples.

Results

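CD4SP thymocytes, the mature CD4 T cells of the thymus, were compared with DN thymocytes, the progenitors at the start of the same pathway. The comparison rests on 6 of the 12 arrays of the series, 3 of CD4SP cells and 3 of DN cells, chosen by the sample titles. All groups were sorted from C57BL/6 thymus without treatment or culture: DN cells carried no CD4, CD8a or TCRb, DP cells carried both CD4 and CD8a, CD4SP cells were CD4+CD8a-TCRbhi, and CD8SP cells were CD4-CD8a+TCRbhi. The gate for DN cells is defined by absent markers alone and names none that would exclude B, NK or myeloid cells. Neither the age of the mice nor whether replicates came from separate mice is given in the sources used here, so a p-value here speaks of the spread among 3 arrays a group, which may be technical, and the number of arrays limits the precision.

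Thymocytes begin as DN cells under Notch and interleukin 7 signals, rearrange the TCRb locus, and test the product as part of the pre-TCR. Cells that pass divide and become DP cells, which rearrange the TCRa locus. DP cells whose receptor engages MHC class II are selected into the CD4 lineage under the factor ThPOK, and mature cells then acquire the receptors with which they enter the medulla and leave for the blood.

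Each value is a logarithm, read as log2, of a level over the average level in the 3 DP samples, so a value of 0 is the DP level and not an absent transcript. The net change is CD4SP minus DN, given as a log2 difference ± the standard error of a limma fit to all 12 arrays. The fit shares 1 spread per gene across the 4 groups, so this error can understate the spread where DN arrays disagree. For Ccr7 the SD was 1.54 on the DN arrays and 0.25 on the CD4SP arrays. A gene was called, and is said to have risen or fallen, at a Benjamini-Hochberg adjusted p under 0.05. Among 18193 genes, 4114 rose (22.6%) and 3828 fell (21.0%), together 43.7% of all genes. The 3 arrays of each group did not overlap in 55.5% of genes. At least 2-fold rises numbered 913 (5.02%) and at least 2-fold falls 1189 (6.54%). The median difference over all genes was 0.08. After quantile normalization, which forces all 12 arrays to 1 distribution of values, 1740 genes rose and 2425 fell, so that rises made up 41.8% of calls, against 51.8% without it. The SD over genes was 0.19 to 0.21 on the DP arrays and 0.67 to 0.83 on the other arrays. This setting therefore widens the DP values, narrows the rest and adds the widened DP arrays to the shared spread. Calls lost or gained under it, here and below, include that rescaling, and its part was not tested.

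DN replicate 1 stood apart from the other DN arrays before any comparison. Its values regressed on the mean of the other DN arrays with a slope of 0.80, against 0.97 and 1.01 for the other DN arrays and 0.92 to 0.97 for the CD4SP arrays. Without DN replicate 1, 3471 genes rose and 3651 fell.

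The sorted coreceptors gave the first check of the labels. Cd4 lay at -3.88, -6.49 and -5.29 on the DN arrays and at -0.76, -0.65 and -0.52 on the CD4SP arrays. The groups did not overlap, as in 55.5% of all genes, and the CD4SP arrays lay just under the DP level. Cd4 rose by 4.58 ± 0.50 (adjusted p = 2.74e-05), a 23.9-fold change. Cd8a, at -2.63, -4.59 and -3.94 on the DN arrays, lay at -6.35, -6.84 and -6.42 on the CD4SP arrays. It therefore fell by 2.81 ± 0.38 from DN to CD4SP although DN cells are sorted as lacking CD8a. Cd8b1, which encodes the partner chain, fell by 1.97 ± 0.29. Under quantile normalization neither CD8 chain was called, with a Cd8a difference of -0.17 and a Cd8b1 difference of 0.15.

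Most markers listed for the 2 populations moved in the direction of their names. Of the 8 markers of CD4 T cells, all 8 rose: Cd4, Zbtb7b, Cd40lg, Cd3e, Cd3d, Cd5, Ccr7 and Il7r. Cd4 is a gene of the sort, and the markers were chosen with earlier results known, so the count is description only. Not all are particular to CD4 cells: Ccr7 and Cd5 also rose in CD8SP, by 6.23 ± 0.61 and 2.39 ± 0.22, while Zbtb7b did not. Of the 6 markers of DN thymocytes, Il2ra, Ptcra, Notch1, Hes1 and Kit fell. The remaining marker, Dtx1, a ubiquitin ligase that is a Notch target, rose by 0.92 ± 0.18.

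The DN arrays also carried markers of cells outside the T lineage, and these lead the list of falls. Of 10 measured neutrophil markers 9 fell, 0 rose and 1 was not called, with a median difference of -3.56. S100a9, a subunit of calprotectin, lay at 6.51, 7.34 and 8.99 on the DN arrays and at -1.55, -1.20 and 0.12 on the CD4SP arrays. That fall of 8.49 ± 0.67 was the largest among called genes whose arrays did not overlap, with clone and predicted-gene identifiers passed over. Camp, the cathelicidin gene, fell by 7.97 ± 0.57, S100a8 fell by 7.90 ± 0.65 and Lcn2, the lipocalin gene of granules, by 6.41 ± 0.56. All 4 genes were highest on DN replicate 3. Csf3r, the receptor for the granulocyte growth factor, was not called (0.18 ± 0.09). The mean over the neutrophil list was 3.35, 3.95 and 5.12 on the DN arrays and 0.03 to 0.22 on the CD4SP arrays.

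B cell, NK and myeloid markers were higher on DN replicates 2 and 3 than on DN replicate 1. Of 9 B cell markers 4 fell and 1 rose, of 9 NK and innate lymphoid markers 5 fell and 3 rose, and of 16 myeloid and dendritic markers 8 fell and 2 rose. Leaving out DN replicate 2, or DN replicate 3, left 3 NK markers called lower. Ms4a1, which encodes the B cell antigen CD20, lay at 3.33, 5.93 and 5.63 on the DN arrays and at 0.38 to 0.43 on the CD4SP arrays. The B cell list averaged 0.46, 1.77 and 1.47 on the DN arrays and -0.52 to -0.22 on the CD4SP arrays, and the NK list 0.996, 1.92 and 2.14 against 0.98 to 1.03. The largest fall of the B cell list, that of Cd79b (-5.31), ran mostly below the DP level. Its mean was 0.765 on the DN arrays and -4.545 on the CD4SP arrays, which lowers the CD4SP average of the list. The myeloid list averaged 1.33, 2.32 and 2.49 on the DN arrays and 0.81 to 0.91 on the CD4SP arrays. Among γδ T cell markers 5 of 7 fell and 1 rose, or 2 rose without DN replicate 2, CD8SP replicate 1, DP replicate 1 or DP replicate 3. Trgv4, a γ chain segment, fell by 6.30 ± 0.23 with 6.20 to 6.82 on the DN arrays and 0.16 to 0.44 on the CD4SP arrays. In bulk RNA, fewer cells of a type and less RNA per cell cannot be told apart, and the part of these other cells in the falls below was not tested.

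In the same ranking, the largest rise was that of Ccr7, the chemokine receptor that guides cells into the medulla and lymph nodes. Ccr7 lay at -1.16, 1.61 and 1.41 on the DN arrays and at 6.94, 7.38 and 7.37 on the CD4SP arrays. The rise was 6.61 ± 0.61 (adjusted p = 8.15e-06), or 97.7-fold, and DN replicate 1 lay below the other DN arrays. Next came Tesc (5.39 ± 0.24), which encodes the calcium-binding protein tescalcin, Gimap4 (4.78 ± 0.54), a GTPase of lymphocytes, and the interferon-inducible Ifi27l2a (4.71 ± 0.35). Tdrp (4.62 ± 0.24), Crybg1 (4.61 ± 0.62), Gimap3 (4.45 ± 0.44), Fam102a (4.33 ± 0.36) and the endocytic adaptor Pacsin1 (4.27 ± 0.23) followed after Cd4. Tnfrsf4, the costimulatory receptor OX40, rose by 4.25 ± 0.12 with the smallest standard error of these genes. Ifit1, Ifi213, the co-receptor gene Tdgf1 and Dapl1 completed the 15 largest, with rises between 4.07 and 4.21.

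Outside the neutrophil genes, the largest falls joined genes high in DN alone with genes high in both DN and DP cells. Gpr25, an orphan receptor, lay at 8.12, 8.49 and 8.40 on the DN arrays and within 0.35 of the DP level on the CD4SP arrays, and fell by 8.24 ± 0.18. Esm1, the secreted proteoglycan endocan, fell by 6.47 ± 0.72 from DN values of 6.10, 7.04 and 7.42. In contrast, Endou (-7.22 ± 0.12), Ly6d (-6.64 ± 0.24) and Dgkeos (-6.51 ± 0.25), a transcript opposite Dgke, lay within 1.74 of the DP level on the DN arrays and fell to between -8.99 and -7.06 on the CD4SP arrays. Nt5dc2 fell at both steps, by 1.58 ± 0.12 from DN to DP and by 5.92 ± 0.12 from DP to CD4SP, 180-fold in all. Gzma, the protease granzyme A, fell by 7.22 ± 0.34, Adssl1, an enzyme of adenine nucleotide synthesis, fell by 6.44 ± 0.36, and the immunoglobulin segment Igkv8-30 by 6.91 ± 0.49.

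**Figure D1:**
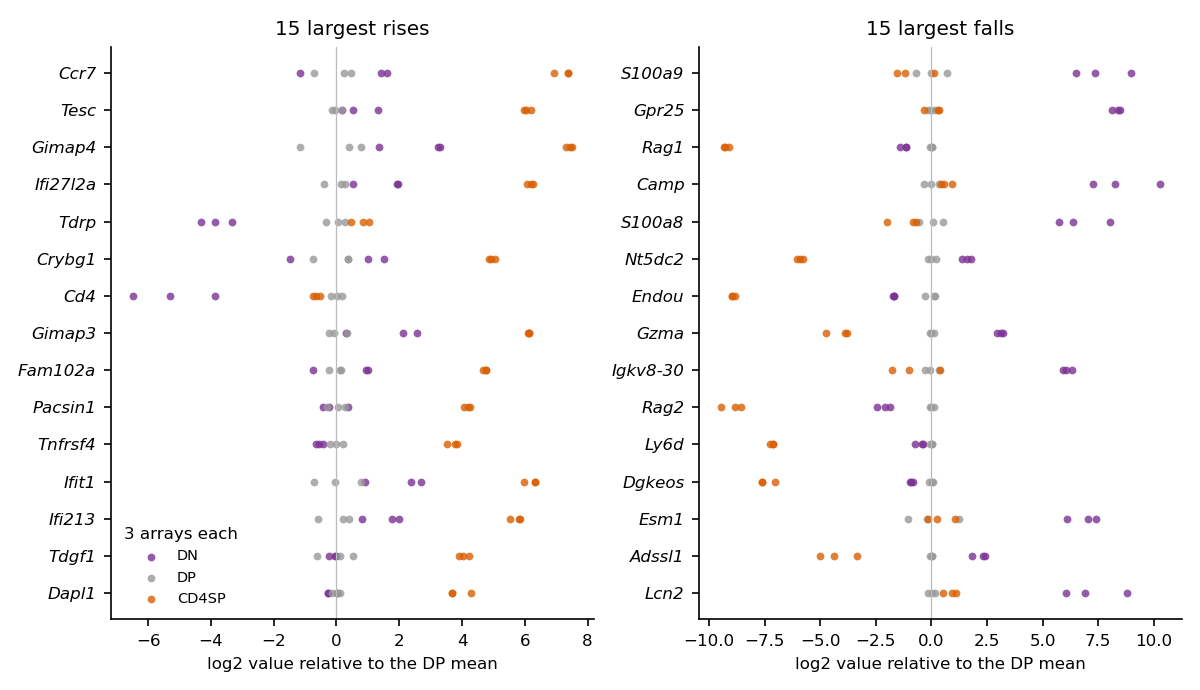
Values of the 15 largest rises (left) and 15 largest falls (right) on each array, as log2 relative to the DP mean, with 3 points per group for DN, DP and CD4SP. Clone and predicted-gene identifiers were passed over. The CD4SP points of Ccr7 lie between 6.94 and 7.38, and the DN points of Camp spread from 7.26 to 10.28.

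**Figure D2:**
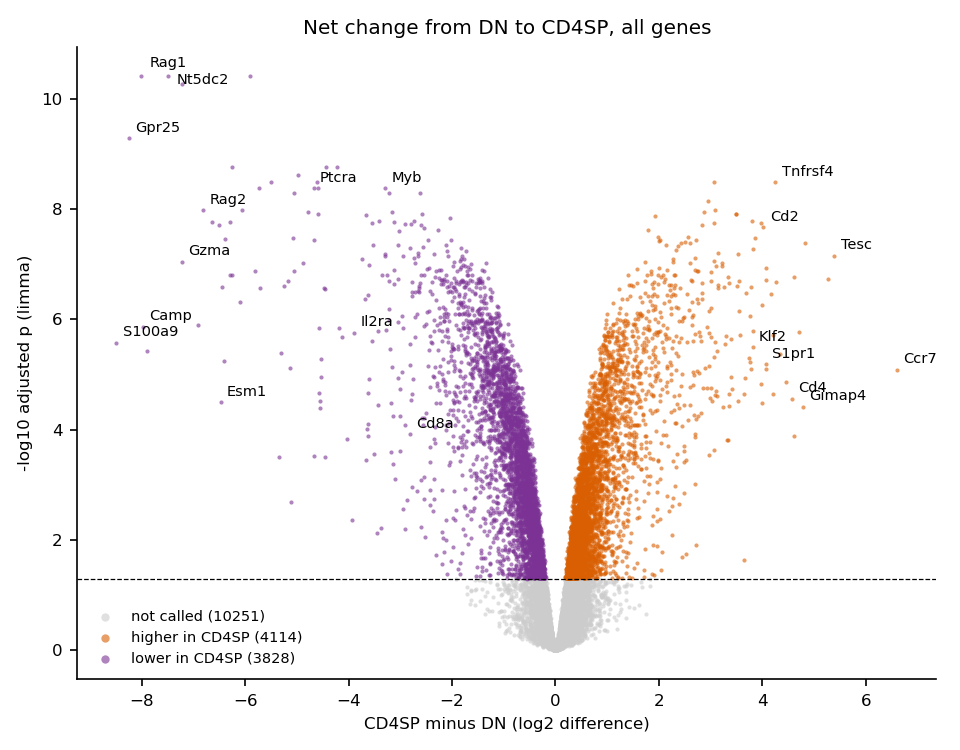
Net change from DN to CD4SP (horizontal axis, log2 difference) against -log10 of the limma adjusted p (vertical axis) for 18193 genes, with the dashed line at an adjusted p of 0.05. Orange points are the 4114 genes higher in CD4SP and purple points the 3828 lower, and the falls reach further from 0 than the rises.

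Genes of the V(D)J recombination machinery fell, the recombinase genes by the most. Rag1 and Rag2 encode the recombinase that cuts antigen receptor loci. Rag1 lay at -1.15, -1.40 and -1.15 on the DN arrays and at -9.10, -9.27 and -9.34 on the CD4SP arrays. The groups were far apart and each was tight: Rag1 fell by 8.01 ± 0.12 (adjusted p = 3.84e-11), or 257-fold. Rag2 fell by 6.81 ± 0.23, while Dntt, whose enzyme inserts untemplated bases at the joints, fell by 4.58 ± 0.16. Among genes of end joining, Xrcc6, which encodes Ku70, fell by 2.01 ± 0.11, the ligase gene Lig4 by 1.99 ± 0.12, and Xrcc5, which encodes Ku80, by 0.95 ± 0.11. In all 6 of the 10 measured members fell and 0 rose. Prkdc (-0.03 ± 0.07), Nhej1 (-0.17 ± 0.10), Atm (0.18 ± 0.08) and Xrcc4 (0.26 ± 0.10) were not called.

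Receptors and factors of the DN stages fell, with exceptions. Of 19 measured progenitor and DN stage genes 10 fell, 2 rose and 7 were not called, with a median of -0.93 against 0.08 over all genes. Il2ra, the CD25 chain that marks the middle DN stages, lay at 3.98, 4.80 and 4.90 on the DN arrays and at 0.78, 0.56 and 0.64 on the CD4SP arrays, a fall of 3.90 ± 0.29. Kit, the receptor of early progenitors, fell by 1.66 ± 0.20, and the transcription factor genes Hhex and Bcl11a fell by 1.49 ± 0.18 and 1.58 ± 0.31. The probe sets of Bcl11a ran from -3.45 to 0.25. Cpa3, a mast cell and progenitor protease, fell by 5.71 ± 0.33. Lyl1 fell by 3.38 ± 0.81, from DN values of 0.75, 4.71 and 4.57 that set DN replicate 1 apart. The fall of Mycn (-2.33 ± 0.12) rested on 1 of its 3 probe sets, which ran from -7.02 to 0.10. Erg (-3.19 ± 0.36) was likewise divided, with probe sets at -5.85 and -0.53. Cd44, an adhesion receptor of both early progenitors and mature T cells, rose by 0.98 ± 0.26, and Gata2 by 0.40 ± 0.12. Without DN replicate 1, Gata2 was not called, which left 1 rise, and under quantile normalization neither rise was called.

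Notch pathway genes moved in both directions. Ptcra, which encodes the pre-TCR α chain, lay at 1.08, 1.21 and 1.37 on the DN arrays and at -3.37, -3.79 and -3.21 on the CD4SP arrays, and fell by 4.68 ± 0.14 (adjusted p = 4.25e-09). The receptors Notch3 and Notch1 fell by 3.22 ± 0.21 and 1.70 ± 0.12, the target Hes1 by 2.42 ± 0.25, the transducing factor Rbpj by 0.52 ± 0.14 and the feedback regulator Nrarp by 0.30 ± 0.10. Lfng, which encodes the glycosyltransferase Lunatic Fringe that modifies Notch receptors, rose by 3.13 ± 0.34. Its values were 2.13, 3.40 and 2.71 on the DN arrays and 5.81 to 5.99 on the CD4SP arrays, with DP lowest of all. Numb (0.94 ± 0.13), an antagonist of Notch, Dtx1, the coactivator gene Maml1 (0.56 ± 0.12) and the ligand gene Dll1 (0.41 ± 0.11) also rose, so that 6 of 14 fell and 5 rose. Numb was not called under quantile normalization (adjusted p = 0.133), nor Dll1 under it or without CD4SP replicate 2 (adjusted p = 0.059).

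The TCR complex and its signalling partners rose as a list: 17 of 23 measured members rose, 5 were not called and 1 fell, with a median of 0.86. The median step was 0.94 from DN to DP and 0.02 from DP to CD4SP. Cd2, an adhesion receptor that lowers the threshold of T cell activation, lay at -0.86, -0.62 and -0.67 on the DN arrays and at 3.13, 3.34 and 3.44 on the CD4SP arrays. Its rise of 4.02 ± 0.15 was the largest of the list. Cd5 and Cd6, a related pair of receptors that dampen TCR signals, rose by 3.68 ± 0.22 and 3.01 ± 0.16. The kinase genes Fyn (2.30 ± 0.14), Prkcq (2.21 ± 0.17) and Zap70 (0.86 ± 0.08) rose, as did Cd28 (1.87 ± 0.11), which encodes the main costimulatory receptor. Of the CD3 chains, Cd247, Cd3d and Cd3e rose by 1.21 ± 0.18, 0.80 ± 0.10 and 0.73 ± 0.10, while Cd3g was not called (0.35 ± 0.15). Themis, a regulator needed for selection, was the exception: it fell by 0.37 ± 0.09, which combined a rise of 1.88 to DP and a fall of 2.25 to CD4SP. Under quantile normalization its difference was 0.08 and not called.

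Genes induced by TCR signals were higher in CD4SP cells. There were 19 rises among 21 measured members, with 1 fall and 1 gene not called, and the median was 1.51. Egr1, an immediate early transcription factor, lay at -1.56, -1.10 and -0.98 on the DN arrays and at 2.03, 1.63 and 1.74 on the CD4SP arrays, a rise of 3.02 ± 0.19. Its relatives Egr2 and Egr3 rose by 3.01 ± 0.23 and 1.51 ± 0.20, their corepressor Nab2 by 3.25 ± 0.18, the orphan receptor Nr4a1 (Nur77) by 2.48 ± 0.28, Itm2a by 2.87 ± 0.10 and the retention receptor Cd69 by 2.83 ± 0.17. Egr3 averages probe sets at 0.12 and 2.90. Myc fell by 1.52 ± 0.16, from 3.50, 3.76 and 3.86 on the DN arrays to 2.06, 2.11 and 2.39. Without DN replicate 1 there were 2 falls. Several of these genes are also induced by cell handling: of 15 dissociation and heat shock genes 7 rose and 3 fell, with a list mean of 0.25, 0.08 and 0.20 on the DN arrays and 0.78, 0.21 and 0.40 on the CD4SP arrays, and their part in the result was not tested.

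Maturation and egress genes had the highest median of the lists outside the Gimap family, at 2.28, with 16 of 19 measured members rising, 2 falling and 1 not called. Klf2, the transcription factor that drives the egress programme, lay at 0.78, 2.06 and 2.12 on the DN arrays and at 5.40, 5.40 and 5.58 on the CD4SP arrays, a rise of 3.81 ± 0.31. S1pr1, the sphingosine phosphate receptor by which cells exit, rose by 4.07 ± 0.36, with DN arrays from -0.02 to 1.31 and CD4SP arrays from 4.55 to 5.10. For both genes DN replicate 1 was the lowest array, and neither gene's groups overlapped, as in 55.5% of all genes. Slfn2 (3.23 ± 0.16), Itgb7 (3.15 ± 0.18), an integrin chain of gut homing, Cd69 and Ms4a4b (3.57 ± 0.27) rose as well. Foxo1, which acts upstream of Klf2 and Il7r, rose by 2.16 ± 0.13, with 3 of its 4 probe sets between 2.85 and 2.97 and the remaining one at -0.06. Il7r, the interleukin 7 receptor, lay at 4.06, 5.38 and 5.31 on the DN arrays and at 7.11 to 7.25 on the CD4SP arrays, so that it was high at both ends and lowest in DP. Its net rise was 2.28 ± 0.36. Ifngr1, an interferon γ receptor chain, fell by 1.55 ± 0.12, and Itga4, the α4 integrin, by 0.82 ± 0.13. Cd55 was not called (-0.10 ± 0.65), with DN replicate 1 at 0.27 and the other DN arrays at 3.03 and 2.94.

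All 8 measured members of the Gimap family, GTPases that support lymphocyte survival, rose, with a median of 2.47. The rises ran from 0.86 ± 0.24 for Gimap5 to 4.78 ± 0.54 for Gimap4. DN replicate 1 was the lowest array for each of the 8 genes. No CD4SP array overlapped a DN array, which also held for 55.5% of all genes.

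The CD4 lineage and helper list showed 13 rises, 2 falls and 2 genes not called among 17 members. Zbtb7b, which encodes ThPOK, lay at 0.23, 0.39 and 0.36 on the DN arrays and at 3.37, 3.20 and 3.21 on the CD4SP arrays, and rose by 2.94 ± 0.21 (adjusted p = 1.36e-06). Both of its probe sets rose, by 3.96 and 1.91. Icos, a costimulatory receptor, rose by 3.82 ± 0.28, Izumo1r, the folate receptor of regulatory T cells, by 3.48 ± 0.12, Cd200 by 1.82 ± 0.28, Cd40lg, which encodes the ligand that activates B cells, by 1.15 ± 0.20, and Tox, a factor of CD4 selection, by 1.10 ± 0.16. Gata3, needed at the DN stage and again for CD4 cells, did not pass the test (0.13 ± 0.21), with -0.15, 0.59 and 0.60 on the DN arrays and 0.67, 0.23 and 0.52 on the CD4SP arrays. Myb fell by 3.29 ± 0.10, from -0.94, -0.84 and -0.54 to between -4.09 and -4.04. Maf fell by 0.52 ± 0.17, a call lost without CD4SP replicate 1 or 2 and without DN replicate 2 or 3 (adjusted p = 0.0636 to 0.108), which left 1 fall. Maf was also not called in a limma fit to only the 6 CD4SP and DN arrays (adjusted p = 0.0826) or under quantile normalization (0.0969).

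Of the CD8 lineage and cytotoxic genes, 7 of 18 fell, 3 rose and 8 were not called. Nkg7, a granule protein of killer cells, lay at 3.91, 5.44 and 5.28 on the DN arrays and at 1.71, 1.03 and 1.61 on the CD4SP arrays, a fall of 3.43 ± 0.39. Cst7 fell by 1.65 ± 0.35, Tbx21, the T-bet gene, by 1.44 ± 0.41, and Gzmb, the granzyme B gene, by 1.01 ± 0.27. Klrd1, which encodes the NK receptor CD94, fell by 1.45 ± 0.42, a call lost without DN replicate 2 or DN replicate 3. Without either of those arrays 4 members fell, while 11 fell when DN replicate 1 and CD8SP replicate 1 were both left out. Dapl1 (4.07 ± 0.22), the lysosomal protease gene Ctsw (2.48 ± 0.47) and Crtam (1.48 ± 0.21), a receptor of activated T cells, rose, the last 2 not under quantile normalization. Runx3, the factor of the CD8 lineage, was not called (0.13 ± 0.12). NK markers fell beside these genes, as given above, and Nkg7 and Klrd1 belong to both lists.

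**Figure D3:**
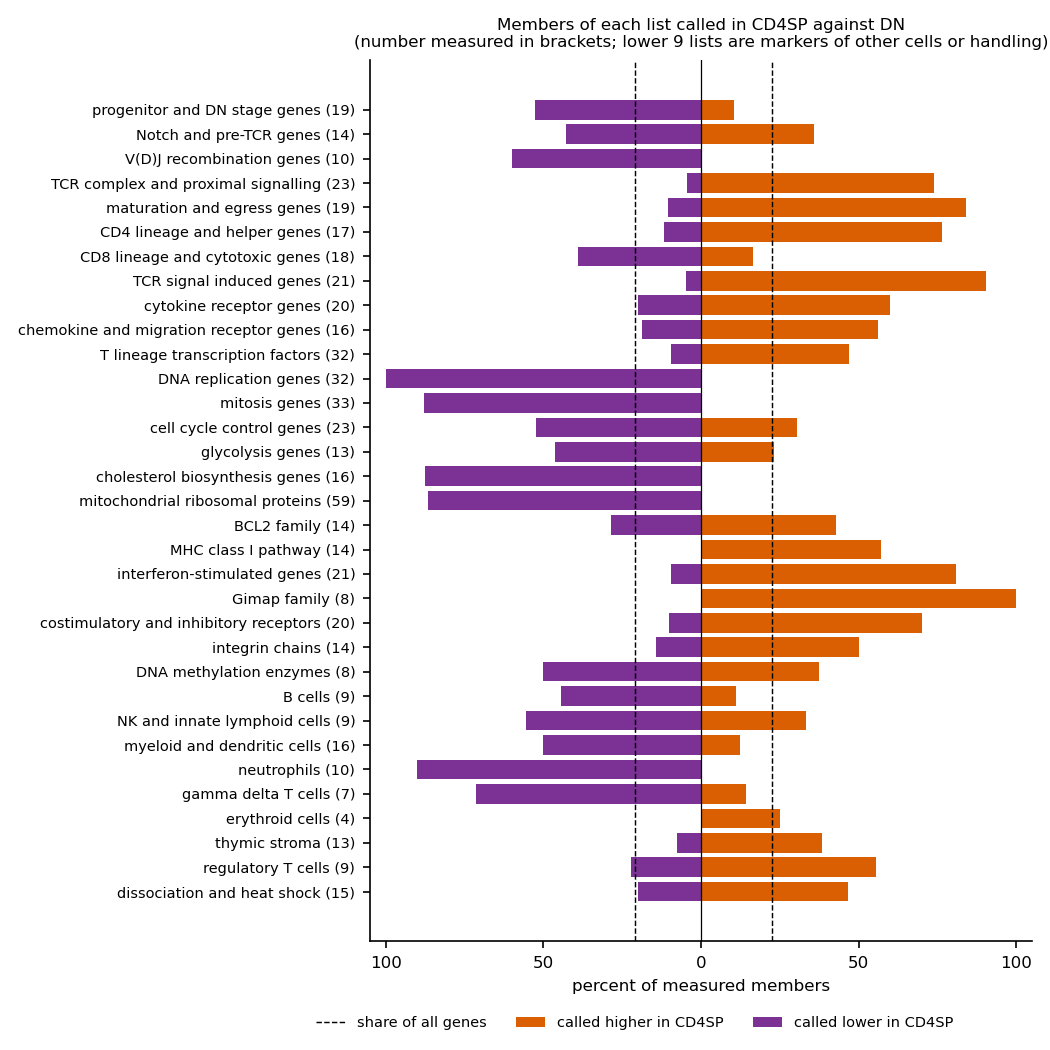
Percent of the measured members of each gene list called higher (right, orange) or lower (left, purple) in CD4SP than in DN, with dashed lines at the shares of all genes, 22.6% and 21.0%. All 32 replication genes fell, all 8 Gimap genes rose, and the lowest 9 bars are markers of other cells or of handling.

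Genes of the cell cycle fell. All 32 measured DNA replication genes fell, with a median of -1.81, and 27 of them fell at least 2-fold. Of 33 mitosis genes 29 fell, 0 rose and 4 were not called, with a median of -1.76. Cdc6, which loads the replicative helicase, lay at 1.44, 1.15 and 1.19 on the DN arrays and at -1.19, -1.60 and -1.60 on the CD4SP arrays, a fall of 2.72 ± 0.13. The helicase subunits Mcm2 to Mcm7 fell by 1.37 to 2.12, the nucleotide enzyme genes Dut, Tk1 and Rrm2 by 2.77 ± 0.16, 2.60 ± 0.14 and 2.15 ± 0.15, and the helicase cofactors Gins1 and Gins2 by 2.63 ± 0.15 and 2.45 ± 0.12. Pcna, the sliding clamp, fell by 0.97 ± 0.09 and Chaf1b, a histone chaperone, by 0.57 ± 0.08.

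In the mitosis list, Cdk1, the kinase that starts mitosis, lay at 0.16, -0.21 and -0.34 on the DN arrays and at -1.77, -2.62 and -2.43 on the CD4SP arrays, a fall of 2.14 ± 0.21. The array numbered 1 was the highest in both groups for Cdk1. Aurkb, a kinase of chromosome segregation, fell by 2.42 ± 0.18, and Mad2l1, of the spindle checkpoint, by 1.88 ± 0.14. The list mean over mitosis genes was 0.06, -0.42 and -0.48 on the DN arrays and -1.46, -2.12 and -2.06 on the CD4SP arrays, so CD4SP replicate 1 lay nearest to DN. Top2a (-0.76 ± 0.33), Kif23 (-0.34 ± 0.20), Cenpa (-0.21 ± 0.20) and Smc4 (-0.02 ± 0.07) were not called. Top2a averages probe sets at -1.30, -1.27 and 0.30, and Cenpa probe sets at -1.10, -0.03 and 0.48.

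The steps through DP are given side by side. The test called 36.6% of all genes between DP and DN and 32.7% between CD4SP and DP. From DN to DP the median replication gene changed by -0.90 and the median mitosis gene by 0.33, and from DP to CD4SP they changed by -0.87 and -1.92. A difference between the lists was not tested. Mcm6, of the replication list, changed by -1.13 ± 0.09 at the first step and -0.99 ± 0.09 at the second. Ccnb2, a mitotic cyclin, changed by 0.34 and -2.52. The first steps and second steps share the DP arrays and add up to the net change.

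**Figure D4:**
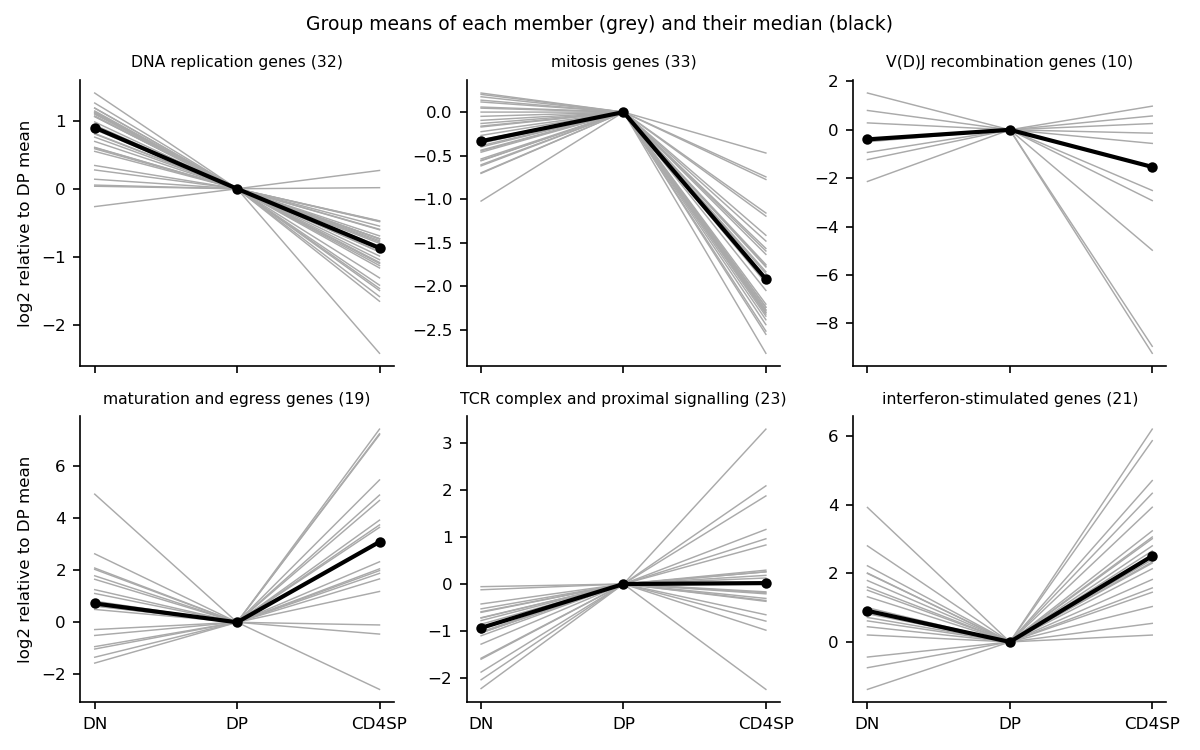
Group means of each member of 6 gene lists in DN, DP and CD4SP (grey lines, log2 relative to the DP mean) with the median member in black, number of members in brackets. The median replication gene descends at both steps and the median mitosis gene after DP, while the median maturation and interferon-stimulated genes pass through a low point in DP.

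The promoters of the falling cell cycle genes are shown because many hold the letters bound by the E2F and NF-Y factors. In windows from 250 bases before to 50 bases after each RefSeq start (GRCm38.p6), 14452 of the 18193 measured genes were matched to 18109 windows. The E2F letters TTTCCCGC, TTTGGCGC, TTTCGCGC or TTTGCCGC, on either strand, occurred in 13 of 32 windows of replication genes (40.6%), in 3 of 29 windows of mitosis genes (10.3%) and in 3.21% of all windows of measured genes. They were also in 5 of 20 windows of progenitor and DN stage genes (25.0%) and 3 of 13 of DNA methylation enzymes (23.1%). Cell cycle control genes held them in 5 of 23 windows (21.7%). The MHC class I pathway, with no member called lower, held them in 2 of 13 (15.4%). Several other lists held none, the Gimap family among them. A match describes letters only and is not a binding site shown by these data. The 40-base windows below, 5′ to 3′ on the strand of the gene, are those of 4 replication genes, with the E2F letters in capitals. They lie at chr1:128359729-128359768 (minus strand) for Mcm6, chr11:98907997-98908036 (plus) for Cdc6, chr5:138172025-138172064 (minus) for Mcm7 and chr4:108579411-108579450 (plus) for Orc1.
Mcm6: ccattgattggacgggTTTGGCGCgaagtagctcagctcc
Cdc6: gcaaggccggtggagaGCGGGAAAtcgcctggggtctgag
Mcm7: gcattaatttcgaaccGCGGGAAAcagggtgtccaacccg
Orc1: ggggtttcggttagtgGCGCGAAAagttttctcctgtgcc

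Mcm6 fell by 2.12 ± 0.09, Cdc6 by 2.72 ± 0.13, Mcm7 by 1.71 ± 0.09 and Orc1, the largest subunit of the origin recognition complex, by 1.07 ± 0.11. In Cdc6, Mcm7 and Orc1 the letters stand on the strand opposite the gene.

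The NF-Y letters CCAAT, on either strand, occurred in 24 of 29 windows of mitosis genes (82.8%), in 17 of 32 windows of replication genes (53.1%) and in 37.4% of all windows of measured genes. They were also in 13 of 16 windows of cholesterol synthesis genes (81.2%) and in 10 of 13 windows of the MHC class I pathway (76.9%), a list with no member called lower. The windows of 4 mitosis genes follow with these letters in capitals, which read ATTGG where they stand on the opposite strand. They lie at chr9:70421555-70421594 (minus) for Ccnb2, chr10:69352938-69352977 (minus) for Cdk1, chr7:122159395-122159434 (plus) for Plk1 and chr2:118598081-118598120 (plus) for Bub1b.
Ccnb2: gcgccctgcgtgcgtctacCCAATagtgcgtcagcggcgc
Cdk1: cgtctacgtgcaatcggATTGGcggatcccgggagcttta
Plk1: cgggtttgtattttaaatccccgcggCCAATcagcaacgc
Bub1b: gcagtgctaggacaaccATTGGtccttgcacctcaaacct

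Ccnb2 fell by 2.17 ± 0.21, Plk1, a mitotic kinase, by 2.24 ± 0.25 and the checkpoint kinase gene Bub1b by 2.25 ± 0.23. Ccnb2 and Cdk1 each held 3 copies of the letters within the 250 bases before the start, and Plk1 and Bub1b 1 copy.

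Regulators of the cell cycle moved in both directions, promoters and inhibitors of division alike. Of 23 measured members 12 fell, 7 rose and 4 were not called. Cdk6, the kinase of G1 entry, lay at 2.44, 2.71 and 2.92 on the DN arrays and at -0.34, -0.52 and -0.44 on the CD4SP arrays, and fell by 3.13 ± 0.12. Its relative Cdk4 fell by 1.61 ± 0.10, the cyclin gene Ccne2 by 2.54 ± 0.18 and E2f2 by 1.31 ± 0.16. E2f1 fell by 0.89 ± 0.09, with probe sets at -1.82, -1.10 and 0.25. The inhibitors Cdkn2d (1.42 ± 0.12) and Cdkn1b (0.68 ± 0.17), the MYC antagonists Mxd4 (1.37 ± 0.15) and Mxd1 (1.40 ± 0.15) and the pocket protein gene Rbl2 (0.84 ± 0.12) rose, while the inhibitors Cdkn1a and Cdkn2c fell by 1.14 ± 0.18 and 0.77 ± 0.13. Ccnd2, the cyclin of lymphocyte growth, rose by 2.17 ± 0.31, from 3.86, 4.77 and 4.72 to 6.66, 6.57 and 6.62, but was not called under quantile normalization. Ccnd3, the cyclin of pre-TCR expansion, rose by 0.83 ± 0.22 with probe sets between -0.40 and 2.05.

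Genes of mitochondrial ribosomes and of cholesterol synthesis also fell. From DN to DP their medians changed by -0.63 and -0.505, and from DP to CD4SP by -0.07 and -0.234. Of 59 measured mitochondrial ribosomal proteins 51 fell, 0 rose and 8 were not called, with a median of -0.67. Mrpl12 fell by 1.62 ± 0.11, from 1.67, 1.69 and 1.37 on the DN arrays to 0.11, -0.18 and -0.07. Of 16 cholesterol synthesis genes 14 fell, with a median of -0.69. Idi1, an isomerase of the pathway, and Sqle, which makes the sterol precursor, fell by 3.23 ± 0.17 and 3.04 ± 0.13, and Hmgcs1, at the start of the pathway, by 1.67 ± 0.10. Sc5d (-0.20 ± 0.09) was not called, nor Fdps (-0.14 ± 0.15), whose value averages probe sets at -2.17 and 1.89. Glycolysis genes gave no single direction: 6 of 13 fell, 3 rose and 4 were not called. Tpi1 fell by 2.56 ± 0.11, Pgam1 by 1.25 ± 0.10 and Hk2 by 2.42 ± 0.49, with DN replicate 1 below the other DN arrays, which stood at 3.35 and 3.32. The glucose transporter gene Slc2a3 rose by 0.85 ± 0.18, and Hk1 and Pfkp rose by 0.50 ± 0.12 and 0.52 ± 0.09. Hk1 was not called under quantile normalization (adjusted p = 0.06).

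Among survival genes of the BCL2 family, 6 of 14 rose, 4 fell and 4 were not called. Bcl2, the protective founding member, rose by 1.95 ± 0.14, from 1.56, 1.90 and 1.89 on the DN arrays to 4.03, 3.68 and 3.50, and Mcl1, also protective, by 1.28 ± 0.10. Bcl2l1, the BCL-XL gene of DP survival, rose by 0.46 ± 0.15, after lying 2.25 higher in DP than in DN. The death-promoting genes split: Bbc3, the PUMA gene, rose by 1.30 ± 0.21 and Bcl2l11, the BIM gene, by 0.53 ± 0.16, while Bid fell by 2.77 ± 0.17. Without CD4SP replicate 1, or without CD4SP replicate 3, 3 members rose. Pmaip1, the NOXA gene, fell by 0.92 ± 0.28, with a call lost without DN replicate 1 or DN replicate 2, and Bmf fell by 0.50 ± 0.14, with a call lost without CD4SP replicate 1 or DN replicate 3. In a limma fit to only the 6 CD4SP and DN arrays Pmaip1 was not called (adjusted p = 0.0686). Under quantile normalization neither Pmaip1 nor Bmf was called (adjusted p = 0.182 and 0.317).

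Interferon-stimulated genes and the MHC class I pathway rose. Interferon-stimulated genes showed 17 rises and 2 falls among 21 members, with 2 not called and a median of 1.69. Ifit1, an antiviral RNA sensor, lay at 0.92, 2.38 and 2.68 on the DN arrays and at 6.31, 5.96 and 6.34 on the CD4SP arrays, a rise of 4.21 ± 0.45. The transcription factors Irf7 and Irf9 rose by 3.04 ± 0.33 and 2.45 ± 0.23, and the GTPase gene Igtp by 2.42 ± 0.14. For the list the median step from DN to DP was -0.91 and that from DP to CD4SP 2.51. Ifitm3 fell by 1.27 ± 0.40 and Gbp3 by 0.56 ± 0.17. Leaving out CD4SP replicate 1, DN replicate 2 or DN replicate 3 left 0 falls, and leaving out CD4SP replicate 2 or 3 left 1. Gbp3 was also not called in a limma fit to only the 6 CD4SP and DN arrays (adjusted p = 0.0555). Under quantile normalization neither Ifitm3 nor Gbp3 was called (adjusted p = 0.345 and 0.0567). Of 14 genes of the MHC class I pathway 8 rose and 0 fell. Nlrc5, the activator of the class I genes, rose by 3.28 ± 0.26, from 1.24, 2.34 and 2.04 to 5.04, 5.17 and 5.25, and the heavy chain genes H2-D1 and H2-K1 by 1.92 ± 0.17 and 1.89 ± 0.20. The immunoproteasome subunit Psmb8 was not called (-0.14 ± 0.11).

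Cytokine and chemokine receptors were remodelled. Of 20 cytokine receptor genes 12 rose and 4 fell, and of 16 chemokine and migration receptor genes 9 rose and 3 fell. Il6ra, a receptor chain for interleukin 6, rose by 2.97 ± 0.19, from 0.15, 0.54 and 0.77 to 3.31, 3.42 and 3.63. Ifngr2 rose by 2.12 ± 0.11 while its partner Ifngr1 fell, Il4ra rose by 1.77 ± 0.13 and Il27ra by 1.81 ± 0.15. Tgfbr2 rose by 2.12 ± 0.16, with probe sets at 0.33, 2.76 and 3.28, and Tgfbr1 fell by 0.60 ± 0.10. Csf2rb fell by 0.91 ± 0.27, a call lost without CD4SP replicate 2 or 3 or DN replicate 3. Nor was it called in a limma fit to only the 6 CD4SP and DN arrays (adjusted p = 0.0578) or under quantile normalization (0.101). Ccr8 rose by 3.79 ± 0.35, Gpr183, an oxysterol receptor, by 1.88 ± 0.16, and Ccr9, the thymus and gut homing receptor, by 1.03 ± 0.12. Cxcr4, the receptor that holds early cells in the cortex, fell by 2.37 ± 0.51, with a DN mean of -0.88 and CD4SP arrays at -1.82, -3.98 and -3.95, with CD4SP replicate 1 nearest to DN. Cxcr5, a receptor also found on B cells, fell by 1.68 ± 0.46 from DN values of 0.90, 2.78 and 2.89, but was not called under quantile normalization. P2ry10 fell by 1.24 ± 0.09. With DN replicate 1 and CD8SP replicate 1 both left out, 5 chemokine receptor genes fell.

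Costimulatory and inhibitory receptors rose in 14 of 20 cases. Beyond Tnfrsf4 and Icos, Cd200r1 (2.98 ± 0.32), Tnfrsf18 (2.81 ± 0.22), the GITR gene, Btla (2.76 ± 0.33) and Cd226 (2.26 ± 0.18) rose. Ctla4 (-0.01 ± 0.21) and Pdcd1 (-0.61 ± 0.24), the PD-1 gene, were not called, with Ctla4 near 2 on all 6 arrays. Cd160 and Slamf6 fell by 1.19 ± 0.22 and 0.46 ± 0.08, falls that were not called under quantile normalization. With DN replicate 1 and CD8SP replicate 1 both left out, 4 of the 20 genes fell. Of 14 integrin chains 7 rose and 2 fell, or 4 rose without CD4SP replicate 2 and 4 fell without DN replicate 1. Itgb3 rose by 3.76 ± 0.33 and Itgb2, the common chain of leukocyte integrins, by 3.08 ± 0.10. Itgal, the α chain that pairs with Itgb2 to form LFA-1, rose by 1.60 ± 0.12. Itgb1 fell by 0.36 ± 0.08, although its probe set of smallest spread rose by 0.73.

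The 32 T lineage transcription factors divided into 15 that rose, 14 not called and 3 that fell. Bach2, a guardian of the resting state, rose by 2.76 ± 0.17, from 0.68, 1.32 and 1.31 to 4.01, 3.74 and 3.84. Lef1 rose by 1.41 ± 0.07, Foxp1, of quiescence, by 1.31 ± 0.10, Ets1 by 1.15 ± 0.11 and the chromatin organiser Satb1 by 1.55 ± 0.13. The E protein genes Tcf3 (E2A) and Tcf12 (HEB) fell by 0.91 ± 0.10 and 0.82 ± 0.08, and their inhibitors Id2 and Id3 rose by 2.31 ± 0.42 and 0.74 ± 0.21. Gfi1, a repressor active in DN and DP cells, fell by 2.42 ± 0.14. Bcl11b (0.35 ± 0.15) and Runx1 (-0.38 ± 0.16) were not called. Without DN replicate 1, 5 of these factors fell.

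The net change in CD4SP was compared with that in CD8SP by testing CD4SP minus CD8SP, in which DN cancels. A called difference can stand beside a change in both subsets, and a difference not called does not show equal changes. That difference was called for 2308 genes (12.7%), 1415 higher (7.78%) and 893 lower (4.91%) in CD4SP. Of the 7942 genes with a net change, 1688 were among them. Of the 32 replication genes 26 differed, with a median net change of -1.02 in CD8SP against -1.81 in CD4SP, and of the 33 mitosis genes 10 differed. Of the 19 maturation and egress genes 2 differed, and Ccr7 rose by 6.23 ± 0.61 in CD8SP. Leaving out CD4SP replicate 2 or CD4SP replicate 3 reduced the 2308 genes to 1528 or 1374, and quantile normalization to 229.

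Zbtb7b, Chl1 and Tnfrsf4 rose in CD4SP and less or not in CD8SP. The net change of Zbtb7b in CD8SP was -0.08 ± 0.21, and the difference between the subsets was 3.02 ± 0.21 (adjusted p = 1.45e-05). Chl1, a cell adhesion molecule, rose by 2.84 ± 0.11 in CD4SP against -0.12 ± 0.11 in CD8SP, with probe sets between 0.54 and 5.40, and its probe set of smallest spread showed no called difference between the subsets (adjusted p = 0.919). Tnfrsf4 rose by 0.95 ± 0.12 in CD8SP. Chdh, choline dehydrogenase, and Il17rb, a receptor for interleukin 25, fell in both subsets but by 5.62 ± 0.19 and 4.80 ± 0.24 in CD8SP and by 1.01 ± 0.19 and 1.13 ± 0.24 in CD4SP. Cxxc5 was lower only in CD4SP by the test of each change (-3.67 ± 0.22, against 0.06 ± 0.22 in CD8SP), and the difference of -3.73 ± 0.22 was called. Nt5dc2 fell further in CD4SP, by 3.80 ± 0.12. Cd79b and the immunoglobulin segment Ighv14-2 were also lower in CD4SP than in CD8SP, by 4.22 ± 0.44 and 4.39 ± 1.02. The call of Ighv14-2 was lost without CD4SP replicate 1 or 2 and without CD8SP replicate 2 or 3 (adjusted p = 0.053 to 0.07). Cd79b, although listed as a B cell marker, had a mean of 0.765 on the DN arrays, near the DP level, and -4.545 on the CD4SP arrays.

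**Figure D5:**
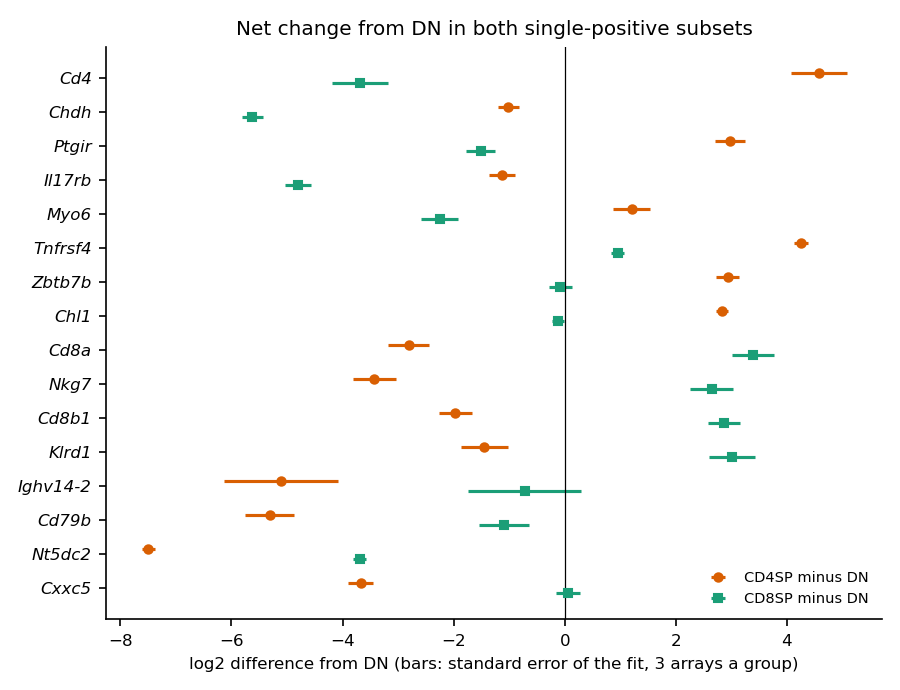
Net change from DN in CD4SP (orange circles) and CD8SP (green squares), as log2 differences with the standard error of the fit, 3 arrays a group, for the 8 genes most in favour of CD4SP (top) and the 8 most in favour of CD8SP (bottom). Cd4, Ptgir and Myo6 were called in both subsets on opposite sides of 0, as were Cd8a, Nkg7, Cd8b1 and Klrd1.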

How the data were processed

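The values are those of the series table. The authors deposited log values, read here as log2, per probe set and array; the log base, genome build and scaling are not given in the sources used here. The submitters' processing notes list MAS5, with no version and no step stated. The deposited values are centred on DP (largest absolute DP mean 1.27e-06), so signal over background is lost and no filter on dim probe sets was possible. The values of DN replicate 1 hold at most 3 decimals.

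Of 45101 probe sets, 34958 had 1 symbol in the platform annotation, 932 several and 9211 none. Control probe sets (64) were left out. Probe sets sharing a symbol were averaged (34945 used, 18193 genes). Gene IDs of 34741 probe sets were found in the RefSeq table of GRCm38.p6, and 0 symbols changed. Of 4397 called genes with several probe sets, 758 had probe sets of both signs.

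One model with a mean for each of the 4 groups was fitted to the 12 arrays in R 4.3.3 (limma 3.58.1: lmFit, then contrasts.fit and eBayes; two-sided tests with Benjamini-Hochberg adjustment over all genes). On simulated data with 200 of 18193 genes changed, the comparison of CD4SP with DN recovered 31.3%, 80.6% and 95.5% of changes of 0.5, 1 and 2, and called 8 unchanged genes. The real comparison called a far larger share of genes than was simulated. The simulated noise was normal and independent between arrays, with 1 SD per gene shared by the 4 groups. Unequal spread between groups, the compressed values of DN replicate 1 and correlated residuals were not simulated. The shares recovered and the 8 calls therefore apply to noise of that kind only.

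Named genes are the coreceptors, the 15 largest rises and falls with arrays that do not overlap (clone identifiers passed over), up to 5 members per list by adjusted p plus those against their list, and the 8 largest differences from CD8SP each way. Other genes, markers included, were chosen for mention with their values in view. The comparison, its members and the lists were chosen with earlier results of these data known.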

Additional observations from a re-analysis of the deposited data

Results flagged for a closer look

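In 8 named genes the net change from DN was called in opposite directions in CD4SP and CD8SP, and the difference between the subsets was itself called by limma. The difference CD4SP minus CD8SP was 8.26 for Cd4, -6.2 for Cd8a and -4.83 for Cd8b1, the genes the sort was made on. For Nkg7 it was -6.08, with a net fall of 3.43 in CD4SP and a net rise of 2.65 in CD8SP. Klrd1 differed by -4.46 and Cd160, a receptor of cytotoxic cells, by -2.72. Ptgir, the prostacyclin receptor, differed by 4.49, since it rose by 2.97 in CD4SP and fell by 1.51 in CD8SP, and Myo6, an unconventional myosin, by 3.46. Under quantile normalization the net changes of Cd8a, Cd8b1, Cd160 and Myo6 in CD4SP were not called (adjusted p = 0.869, 0.867, 0.327 and 0.248), and that of Cd8b1 reversed to 0.15. The net fall of Klrd1 was not called without DN replicate 2 or DN replicate 3 (adjusted p = 0.0635 and 0.0652), and that of Cd160 not with the probe set of smallest spread (adjusted p = 0.149).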

How the results depend on the processing

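Over 186 named genes and 23 alternatives, 4093 of 4179 values counted as unchanged, 64 lost a call, 9 gained one and 13 reversed. A reversal was counted only where the main fit or the alternative called the gene. A change of sign that neither called counted as unchanged. By this count 144 genes were unchanged throughout. Quantile normalization, which widens the narrow DP arrays, gave 1740 higher and 2425 lower genes, 767 lower by at least 2-fold and 229 between the subsets. It reversed Cd8b1 (0.15), Themis (0.078) and Pou6f1 (1.95). Genes with exactly 1 probe set, fewer by construction, gave 1698 higher, 1560 lower, 437 and 640 at 2-fold, and 639 between the subsets. That last count was 3578 with array weights and 1480 with the probe set of smallest spread. The latter reversed Foxo1 (-0.06), E2f1 (0.25), Ccnd3 (-0.40), Pfkl (0.49) and Itgb1 (0.73), and it or the probe set of highest mean Mycn (0.10) and Bmf (0.11). Ccdc153 reversed to 0.46 without DN replicate 1 and CD8SP replicate 1. The cause was not tested. Leaving out 1 array gave 3231 to 4459 higher and 3365 to 4076 lower genes, 846 to 1008 and 1155 to 1231 at 2-fold, and 1374 to 2789 between the subsets. The labels give replicate numbers but no pairing. Residuals of same-numbered arrays correlated by -0.03 to 0.16, above 0 in 16 of 18 pairs and above 0.1 in all 6 among arrays numbered 1, and 11 of 12 arrays correlated best with one of their own number, a hint from the data and not the design. With the replicate block 4344 genes were higher and 3966 lower, and Capg and Ms4a4c were called. Centring each array on its median moved the median difference from 0.08 to 0.01 and gave 3328 higher and 4253 lower genes, so that 43.9% of calls were higher. DP-relative values carry no signal level, so dim probe sets could not be told from bright ones.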

Other observations

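Some genes set DP apart from both other stages without a called net change, and were picked for that. Slc7a11, the cystine transporter, lay between -7.08 and -6.80 on the DN arrays and between -6.93 and -6.46 on the CD4SP arrays, with a net difference of 0.22 ± 0.18 that was not called. Medag (0.19 ± 0.40), the POU factor gene Pou6f1 (-0.03 ± 0.31), the noncoding Nron (0.04 ± 0.26) and Ccdc153 (-0.94 ± 0.89) were likewise highest in DP. Under quantile normalization Slc7a11, Medag, Nron and Pou6f1 were called higher in CD4SP than in DN. Rgs1 (0.78 ± 0.50), Ncf4 (0.42 ± 0.41), S100a6 (-0.74 ± 0.64), Capg (0.85 ± 0.34) and Ms4a4c (0.97 ± 0.47) were lowest in DP, and for each DN replicate 1 lay under the other DN arrays. Capg was called without DN replicate 2 or 3, with the probe set of highest mean (adjusted p = 0.0441) and with the replicate block (0.0151), and Ms4a4c without DN replicate 2 and with the block (0.0487).

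DNA methylation enzymes changed in both directions. Uhrf1, which brings the maintenance methyltransferase to new DNA, fell by 3.30 ± 0.15, from 0.69, 0.65 and 0.65 on the DN arrays to -2.29, -2.79 and -2.82 on the CD4SP arrays. Dnmt1, the maintenance enzyme, fell by 1.46 ± 0.09, Dnmt3b by 1.42 ± 0.10 and the remodeller gene Hells by 1.78 ± 0.13. The demethylating dioxygenase gene Tet2 rose by 1.49 ± 0.14, and Tet1 and Tet3 by 0.53 ± 0.09 and 0.79 ± 0.13, the last 2 not under quantile normalization. Dnmt3a was not called (0.22 ± 0.10).

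Of 9 regulatory T cell markers 5 rose, 2 fell and 2 were not called. Foxp3, their lineage factor, rose by 0.66 ± 0.16, from -0.20, -0.26 and -0.04 to 0.41, 0.39 and 0.68, and Gpr83 by 3.83 ± 0.17. Il2ra, shared with the DN stages, and Nrp1 (-2.17 ± 0.14) fell. The thymic stroma list of 13 markers held 5 rises and 1 fall, or 2 rises without DN replicate 1, DN replicate 2 or CD4SP replicate 2 and 3 rises without CD4SP replicate 3. Of 4 erythroid markers Hba-a1 rose by 0.61 ± 0.09, and 2 rose without CD4SP replicate 3. For the heat shock gene Hspa1b, which was not called (-1.64 ± 0.80), replicate 1 exceeded the other arrays of its group, at 3.76 in DN and 1.75 in CD4SP.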
